A study of Mus musculus with 2 samples.

Results

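The miR-15/miR-16 family, which includes miR-195 and miR-497, was examined in the left cerebral cortex of male mice. Its members are the 7 miRNA genes Mir15a, Mir15b, Mir16-1, Mir16-2, Mir195a, Mir497 and Mir497b, taken by GENCODE M21 gene name out of 2202 annotated miRNA genes. RNA fragments below 30 nucleotides were sequenced from 2 animals of the B6CASTF1/J strain, first-generation hybrids of C57BL/6J and CAST/EiJ, at 2 months of age. Library 1 is biological replicate 1 (animal 3) and library 2 is biological replicate 2 (animal 4). The labels give both a single donor identifier, and some of their spread may be technical. There was 1 group, no treatment and no engineered allele, so no condition was compared, and p-values below describe these libraries only.

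MicroRNAs are short RNAs that guide Argonaute proteins to messenger RNAs, mainly by pairing of the seed, bases 2 to 8 of the mature strand. The miR-15/16 family is known for slowing the cell cycle and favouring apoptosis, through targets such as cyclins D1 and E1 and the survival factor Bcl2. Loss of the DLEU2 locus that holds miR-15a and miR-16-1 is a frequent lesion of chronic lymphocytic leukaemia, and miR-195 is known to rise in the heart as its muscle cells stop dividing after birth.

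All 7 members matched a RefSeq entry (GRCm38.p6), with 13 mature sequences counted once per gene. The 5′ arms are shown because they carry the seed that makes these genes a family. Capitals mark bases 2 to 8.
miR-15a-5p (Mir15a): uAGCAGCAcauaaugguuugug
miR-15b-5p (Mir15b): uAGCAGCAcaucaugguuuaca
miR-16-5p (Mir16-1 and Mir16-2): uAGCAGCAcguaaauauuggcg
miR-195a-5p (Mir195a): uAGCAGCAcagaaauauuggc
miR-497a-5p (Mir497): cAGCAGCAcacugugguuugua
The seed AGCAGCA was carried by 6 of the 7 members and by 11 of 1738 mature sequences in the RefSeq table. Past the seed the strands diverge. miR-16-5p and miR-195a-5p were closest, with the same base at 19 of 21 positions compared from the 5′ end, and miR-16-5p and miR-497a-5p were farthest, with 11 of 22. Mir497b does not carry the seed, and its strand is shown for that contrast.
miR-497b (Mir497b): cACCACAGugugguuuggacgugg

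The 3′ arms of the Mir16 genes are shown because they tell apart copies that share their 5′ arm.
miR-16-1-3p (Mir16-1): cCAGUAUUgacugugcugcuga
miR-16-2-3p (Mir16-2): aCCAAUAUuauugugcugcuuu
The hairpins of Mir16-1 and Mir16-2 share a stretch of 23 bases, which holds miR-16-5p whole and 1 base beyond it, while neither 3′ arm occurred in any other annotated hairpin. Reads that map to several places are tallied apart and given to no gene in these tables. A read of miR-16-5p that stops within that stretch therefore enters neither gene's count. The counts are thus lower bounds on the reads from both genes, over both arms, and not on miR-16-5p alone. How much of them comes from each arm was not analysed here. No other member shared more than 16 bases on the same strand with any annotated hairpin. That longest match was between Mir195a and Mir195b.

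The members lie at 3 loci (mm10 coordinates, GENCODE M21). Mir15a (ENSMUSG00000093007.1; chromosome 14, 61632027 to 61632110, minus strand) and Mir16-1 (ENSMUSG00000092995.1; chromosome 14, 61631880 to 61631972, minus strand) lie 54 bases apart in the long non-coding RNA Dleu2. Mir15a was intronic in all 8 Dleu2 transcripts that span it, whereas Mir16-1 was intronic in 8 and overlapped an exon in 1 of 9. Mir15b (ENSMUSG00000065580.2; chromosome 3, 69009772 to 69009835, plus strand) and Mir16-2 (ENSMUSG00000065606.1; chromosome 3, 69009902 to 69009996, plus strand) lie 66 bases apart in an intron of Smc4, which encodes a condensin subunit needed to compact chromosomes at mitosis. Mir497 (ENSMUSG00000105220.1; chromosome 11, 70234717 to 70234800, plus strand) and Mir195a (ENSMUSG00000065411.2; chromosome 11, 70235042 to 70235135, plus strand) lie 241 bases apart, with no host gene annotated over them on their strand. Mir497b (ENSMUSG00000070109.2; chromosome 11, 70234692 to 70234816, minus strand) covers all 84 bases of Mir497 from the other strand.

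The libraries held 11372894 and 12980686 reads, of which 3827158 and 4553291 lay on the sense strand of a miRNA gene. Levels are given as CPM, counts per 1000000 of these sense-strand miRNA reads. A small-RNA read spans a whole mature strand, so counts were not divided by gene length, but capture in library preparation can differ between miRNAs, and levels of different genes are compared with that limit. Among markers of the tissue and of other organs, Mir132, a miRNA induced by neuronal activity, reached 39333 CPM, the liver miRNA Mir122 stood at 75.5 CPM, and of the 3 muscle genes Mir206 stood at 29.5 CPM while Mir1a-1 and Mir133a-1 had no read. The neuronal Mir124a genes, which exist in 3 copies, had at most 18 reads in either library. Reads mapped to several places made up 41.7% and 41.1% of the libraries.

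Of the 7 members, 6 were detected, with 10 or more sense-strand reads in both libraries, against 18.4% of all annotated miRNA genes. Together the members had 12596 reads in library 1 and 13289 in library 2. This was 0.329% (95% exact binomial interval 0.323 to 0.335%) and 0.292% (0.287 to 0.297%) of the sense-strand miRNA reads, with a mean of 0.310% ± 0.0264 (SD, n = 2). The reads carry no molecular identifiers and may repeat a molecule, so intervals and limits cover counting error only. Reads that fit both Mir16 copies are left out of the family's reads, so these shares do not hold all of miR-16. The 6 detected members had a median of 410 CPM, against 95.6 CPM over the 406 detected miRNA genes. In bulk tissue, fewer cells that express a miRNA and less of it per cell cannot be told apart.

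Mir195a and Mir497, the chromosome 11 genes, had the highest counts of the family. Their place against miR-16 is not resolved, since reads that fit both Mir16 copies are left out. Mir195a had 4865 reads (1271 CPM) in library 1 and 3296 reads (724 CPM) in library 2, with a mean of 998 ± 387 CPM (SD, n = 2). It was the top member in library 1 and ranked 93 among the detected genes by mean. Mir497 had 3498 reads (914 CPM) and 4414 reads (969 CPM), with a mean of 942 ± 39.2 CPM. It was the top member in library 2, and its values lay inside the range of Mir195a, so the order of these genes was not resolved.

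Mir15a, the partner of Mir16-1 in Dleu2, came next, with 1797 reads (470 CPM) in library 1 and 2228 reads (489 CPM) in library 2. Its mean was 479 ± 14.0 CPM (SD, n = 2), and its values lay below those of Mir497 and Mir195a in both libraries. Mir16-1 had 894 reads (234 CPM) and 2030 reads (446 CPM), a mean of 340 ± 150 CPM, and it was the member with the widest relative gap between the libraries.

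Mir15b, in the condensin gene, had 1262 reads (330 CPM) in library 1 and 993 reads (218 CPM) in library 2, with a mean of 274 ± 79.0 CPM (SD, n = 2). Its range overlapped that of Mir16-1, and the order of these genes turned over between the libraries. Mir16-2 was the lowest detected member, at 280 reads (73.2 CPM) and 328 reads (72.0 CPM), a mean of 72.6 ± 0.796 CPM. Its values lay below those of all other detected members in both libraries and below the median of detected genes. Since miR-16-5p reads that fit both copies are left out, the low places of Mir16-1 and Mir16-2 cannot be read as low miR-16.

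**Figure D1:**
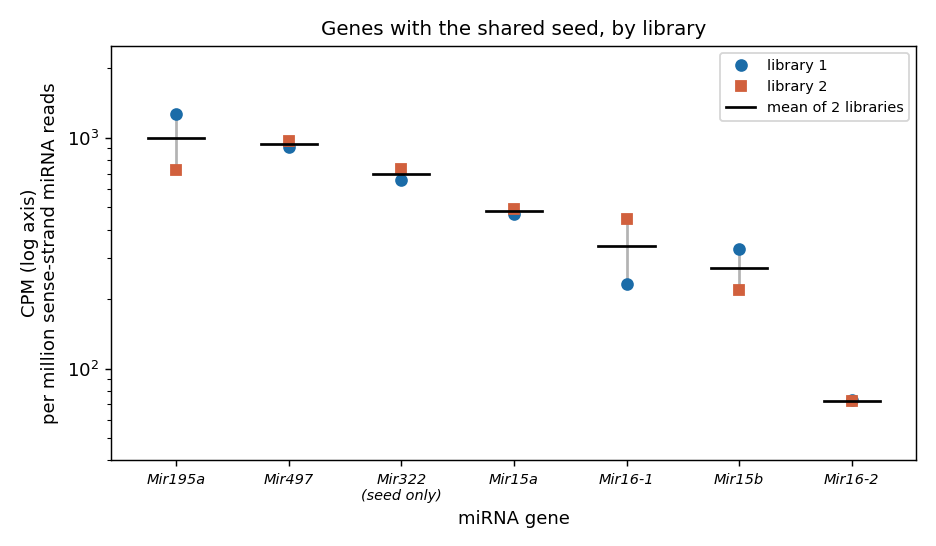
Level of each detected miRNA gene with the seed AGCAGCA, in CPM on a log axis, with a circle for library 1, a square for library 2 and a bar for their mean. Mir497, Mir15a and Mir16-2 have nearly the same level in both libraries, while Mir195a (1271 and 724 CPM), Mir15b (330 and 218 CPM) and Mir16-1 (234 and 446 CPM) differ, the last in the opposite direction to the others.

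**Figure D2:**
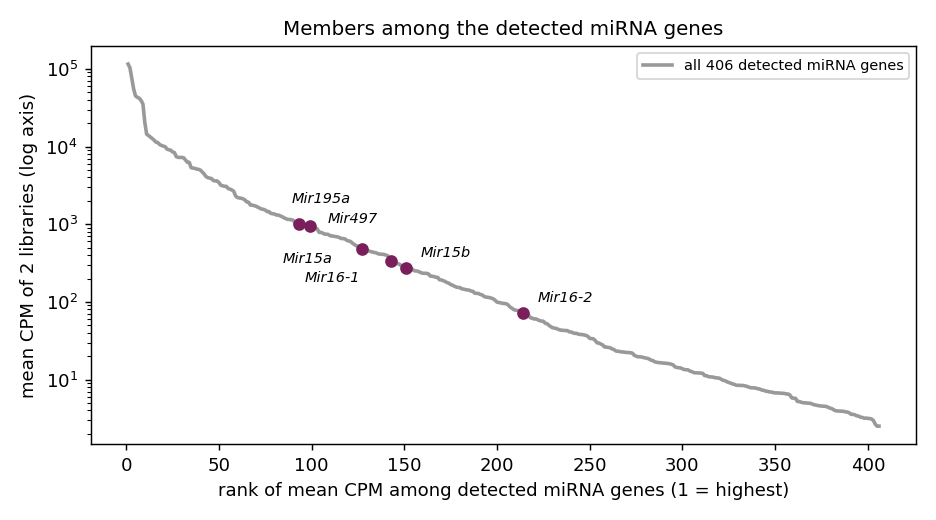
Mean CPM of the 406 detected miRNA genes (log axis) against their rank, with the 6 detected members as points. The members stand between rank 93 (Mir195a) and rank 214 (Mir16-2), with the Mir16 genes counted without reads that fit both copies.

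Mir497b had no sense-strand read in either library. A count of 0 allows up to 0.784 CPM in library 1 and 0.659 CPM in library 2. Its antisense column held 3498 and 4414 entries, exactly the sense-strand counts of Mir497, since the genes overlap on opposite strands and a read of Mir497 enters both columns. The mature miR-497b and miR-497a-3p overlap by 17 bases on opposite strands, and miR-497b and miR-497a-5p do not overlap. The other 6 members had 0 antisense reads in both libraries. In the column that ignores strand, reads in overlapping genes are tallied as ambiguous, and Mir497 had 0 reads there in both libraries, so its level is seen only where strand is kept.

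By locus, Mir195a and Mir497 on chromosome 11 together held 66.4% of the family's reads in library 1 and 58.0% in library 2. The Dleu2 locus with Mir15a and Mir16-1 held 21.4% and 32.0%, and the Smc4 locus with Mir15b and Mir16-2 held 12.2% and 9.94%. The order of the loci was the same in both libraries. As levels, the chromosome 11 locus stood at 1939 ± 348 CPM (SD, n = 2), the Dleu2 locus at 819 ± 164 CPM and the Smc4 locus at 347 ± 79.8 CPM, and the values of the 3 loci did not overlap. The last 2 include a Mir16 copy and are lower bounds in the sense given above.

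Between the libraries, 3 members differed by 1.5-fold or more and 3 by at most 1.06-fold. Mir195a was 1.76-fold higher in library 1 (0.81 as the log2 of library 1 over library 2, with an exact 95% interval of 0.75 to 0.88). Mir15b was 1.51-fold higher in library 1 (log2 ratio 0.60, 0.48 to 0.72). Mir16-1, counted without reads that also fit Mir16-2, went the other way and was 1.91-fold higher in library 2 (log2 ratio -0.93, -1.05 to -0.82). Mir497 was 1.06-fold higher in library 2 (log2 ratio -0.08, -0.15 to -0.02).
Mir15a (log2 ratio -0.06, -0.15 to 0.03) and Mir16-2 (0.02, -0.21 to 0.26) had intervals that include no difference. For comparison, 27.3% of the 406 detected genes differed by 1.5-fold or more, and the median difference was 1.27-fold over the 6 detected members and 1.28-fold over all detected genes.

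A two-sided exact binomial test, adjusted by Benjamini-Hochberg over the 508 genes with 10 or more reads in total, called 4 of the 6 members tested, against 48.4% of all genes tested. It called 2 members higher in library 1 (25.2% of all genes), Mir195a (adjusted p = 1.80e-139) and Mir15b (adjusted p = 7.41e-22). It called 2 members higher in library 2 (23.2% of all genes), Mir16-1 (adjusted p = 2.48e-61) and Mir497 (adjusted p = 0.0207). Mir15a (adjusted p = 0.301 by the same exact test) and Mir16-2 (adjusted p = 0.916) were not called. That test allows for counting error only. When edgeR's exact test also allowed for a spread between libraries with a coefficient of variation of 33.2%, it called 0 of the 6 members (0 also at an unadjusted p under 0.05), against 0.787% of the 508 genes. The lowest unadjusted p was that of Mir16-1, at 0.172 by edgeR's exact test. That spread was estimated from the same 2 libraries, so each difference is set against a spread made of such differences, and the lack of calls shows only how the members stand among the other genes. Summed over the family, the level was 1.13-fold higher in library 1 (log2 ratio 0.17, exact 95% interval 0.14 to 0.21). The sum does not stand for each member, as Mir16-1 and Mir497 were called higher in library 2 by the exact binomial test. Without Mir195a, the other members together were lower in library 1.

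**Figure D3:**
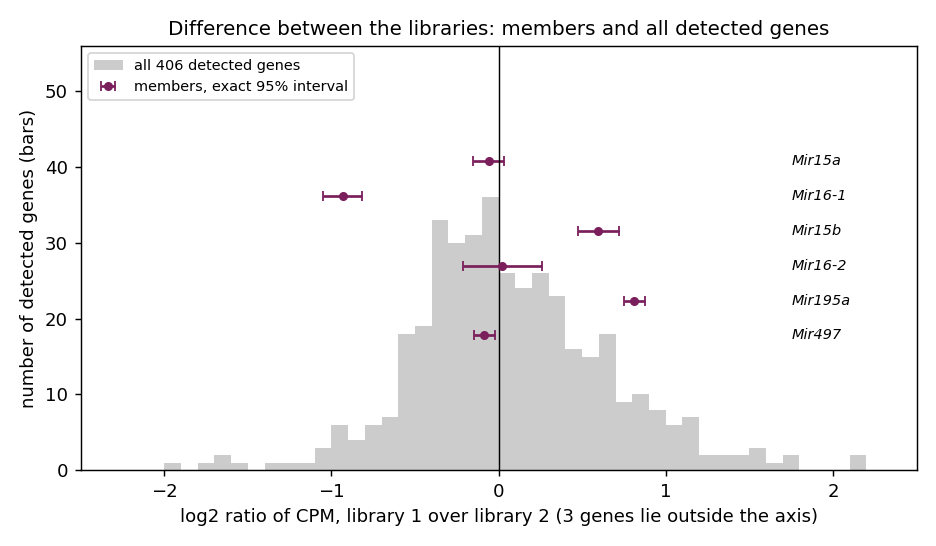
Log2 ratio of CPM, library 1 over library 2, for the 6 detected members (points with exact 95% intervals, placed at arbitrary heights) over a histogram of the 406 detected genes, of which 3 lie outside the axis. Mir195a and Mir15b sit to the right, Mir16-1 to the left, and the other 3 near 0, all within the range of the histogram. The Mir16 genes are counted without reads that fit both copies.

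Neighbouring members did not keep their proportions of counted reads between the libraries. The Mir16 copies are counted here without reads that fit both. In the chromosome 11 pair, Mir195a supplied 58.2% (exact 95% interval 57.1 to 59.2%) of the pair's reads in library 1 but 42.7% (41.6 to 43.9%) in library 2, so that the leading partner changed. In the Dleu2 pair, Mir15a supplied 66.8% (65.0 to 68.6%) and 52.3% (50.8 to 53.8%). In the Smc4 pair, Mir15b supplied 81.8% (79.8 to 83.7%) and 75.2% (72.7 to 77.5%). The partners' ratio thus differed between the libraries by 1.86-fold, 1.83-fold and 1.49-fold, in this order.

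A two-sided Fisher's exact test on the reads of both partners was run on all 69 pairs of neighbouring miRNA genes on the same strand that lie at most 1000 bases apart and have 10 or more reads each over both libraries. With Benjamini-Hochberg adjustment over these pairs it called all 3 pairs of the family, against 71.0% of the 69. The adjusted p-values were 1.89e-84 for the chromosome 11 pair, 2.31e-32 for the Dleu2 pair and 3.15e-05 for the Smc4 pair, by Fisher's exact test. The median change of ratio over the 69 pairs was 1.46-fold, and 17 of them changed by 2-fold or more. Most neighbouring pairs in the tables were thus called too, and the test again covers counting error alone.

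**Figure D4:**
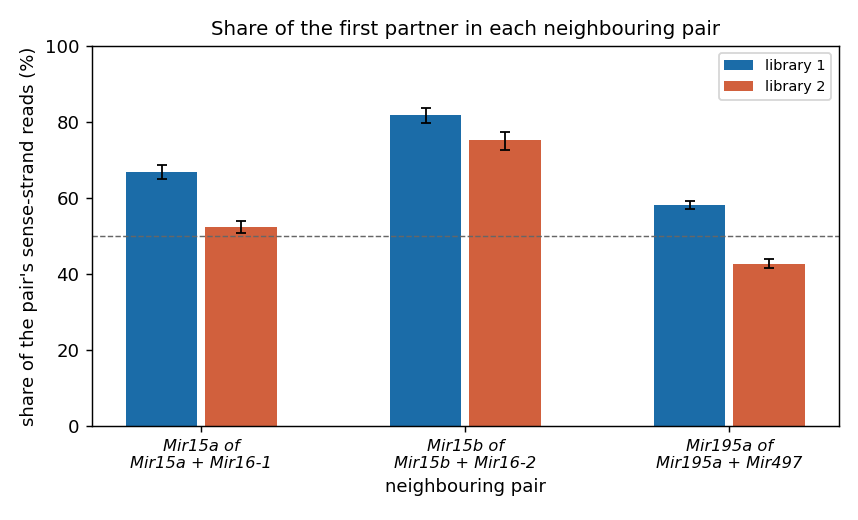
Share of the first-named gene in the sense-strand reads of each neighbouring pair, in percent, with a bar per library and exact 95% intervals. All 3 shares are higher in library 1, and only that of Mir195a crosses the dashed line at 50%. The shares of Mir15a and Mir15b are set against Mir16 copies counted without reads that fit both.

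Markers of the tissue's cell types and of blood also differed between the libraries. The 3 red blood cell genes Mir451a, Mir144 and Mir486, all detected, summed to 134 CPM in library 1 and 1549 CPM in library 2, mostly from Mir451a (58.3 and 1419 CPM). Within that list Mir144 was also higher in library 2 (24.6 and 96.0 CPM), whereas Mir486 was higher in library 1 (51.0 and 34.7 CPM). The 5 leukocyte and microglia genes, 4 of them detected and none at 0, summed to 2164 and 1751 CPM. Among these genes Mir155 was higher in library 2 (36.6 and 45.7 CPM), while Mir223 had 61 reads in library 1 and 8 in library 2. Mir451a and Mir223 were called by edgeR's exact test. The 3 vessel genes, all detected, summed to 14355 and 18574 CPM, although Mir145a was higher in library 1 (254 and 221 CPM). The 10 neuron genes, 7 of them detected and none at 0 in both libraries, summed to 72420 and 47846 CPM. Most of this came from Mir132 (48515 and 30152 CPM). The genes of this list went both ways, and Mir138-1 was higher in library 2 (4434 and 6046 CPM). The 2 astrocyte genes, both detected, summed to 14154 and 9725 CPM, and the 2 oligodendrocyte genes, both detected, to 4975 and 3461 CPM. The part of these cells in the members' differences was not tested.

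Beyond the listed members, 5 further genes carry the seed AGCAGCA. Only Mir322, the mouse counterpart of human miR-424, was detected. Its 5′ arm is shown for comparison with the family above, next to that of Mir503, its neighbour on the X chromosome, which has a related but different seed.
miR-322-5p (Mir322): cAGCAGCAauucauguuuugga
miR-503-5p (Mir503): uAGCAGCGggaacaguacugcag
Mir322 had 2514 reads (657 CPM) in library 1 and 3330 reads (731 CPM) in library 2, a mean of 694 ± 52.6 CPM (SD, n = 2), which lay between Mir497 and Mir15a. Mir503 had 84 reads (21.9 CPM) and 51 reads (11.2 CPM). Mir195b, Mir6342, Mir6353 and Mir6419 had no sense-strand read in either library, with the same limits as Mir497b. All 11 genes with the seed made up 0.380% ± 0.0211 of sense-strand reads in miRNA genes (SD, n = 2), and the family supplied 83.4% of that in library 1 and 80.0% in library 2. Reads that fit both Mir16 copies are left out of these sums, in an amount that was not analysed here.

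Other miRNAs known for acting on the cell cycle and apoptosis were set beside the family as a list of 14 genes, which includes Mir322 and Mir503. Of these 12 were detected, and their median was 194 CPM. The highest were Mir34a, a target of p53, at 3874 ± 691 CPM (SD, n = 2), Mir93 of the miR-106b cluster at 1143 ± 52.9 CPM, and Mir322. By these counts Mir34a stood above every member of the family in both libraries, the Mir16 genes being lower bounds. By the exact binomial test 2 of the 12 genes of the list tested were higher in library 1 and 5 in library 2, against 25.2% and 23.2% of all genes tested, and edgeR's exact test called none of the 12, also at an unadjusted p under 0.05. Mir19a and Mir19b-1 had no read.

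The detected genes closest to Mir195a in level over both libraries, by the larger of the differences in log2 CPM with 1 CPM added, were Mir187 (1132 and 639 CPM, difference 0.18), Mir667 (1066 and 870 CPM, difference 0.26) and Mir455 (1532 and 835 CPM, difference 0.27). With 2 libraries this likeness describes level and little else.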

How the data were processed

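Per the deposited descriptions, the authors aligned reads to mm10 and used GENCODE M21. The deposited tables hold whole-number read counts per miRNA gene, not normalized, in columns that ignore strand, keep the sense strand or keep the antisense strand. The layout with 4 tally rows is that of STAR's gene counts, while aligner and adapter trimming were not given in the sources used here. Tally rows (unmapped, several places, outside genes, ambiguous) stayed out of library sizes and tests: they held 19.6%, 41.7%, 5.03% and 0% of library 1 and 18.9%, 41.1%, 4.94% and 7.70e-06% of library 2. All 2202 identifiers matched GENCODE M21. The reads come from hybrid mice, and alleles of the CAST/EiJ parent were not analysed here.

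CPM used the sense-strand miRNA total. Ratios were tested between libraries by exact binomial tests over 508 genes, and by edgeR 4.0.16 (TMM, intercept-only common dispersion, exact test) in R 4.3.3, with Benjamini-Hochberg adjustment at 0.05. Partner shares used Fisher's exact test. Tests were tried on simulated data. DESeq2 1.42.0 gave alternative size factors. Python 3.11.15, scipy 1.17.1 and pandas 2.3.3 did the rest. All members were named, with every gene of the same seed, the 3 highest of a list of cell cycle miRNAs and the 3 genes nearest the top member. Members and lists were chosen with earlier results of these data known. The largest gap of 1000 bases between neighbours was set after the data were seen. Alternatives were other denominators, scalings, count minimums and strand columns, leaving out the Mir16 copies, and each library in turn.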

Additional observations from a re-analysis of the deposited data

Results flagged for a closer look

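Signal outside the main measurement was seen at 2 places that touch the family. The antisense column of Mir497b held 3498 entries in library 1 and 4414 in library 2, above the 3 counts that a count of 0 allows, and these equal the sense-strand counts of Mir497. Reads mapped to several places, which no gene received, made up 41.7% of library 1 and 41.1% of library 2. The share of miR-16-5p among them was not analysed here.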

How the results depend on the processing

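The family's share of 0.310% of sense-strand miRNA reads became 0.107% of all reads, 0.271% of uniquely mapped reads, 0.233% in the column that ignores strand and 0.269% without Mir16-1 and Mir16-2. In the column that ignores strand Mir195a held 100% of its pair, since Mir497 lost its reads. Mir16-2 turned from a log2 ratio of 0.02 to -0.019 with DESeq2 size factors, and was called under neither. The log2 ratio of the family sum stayed above 0 in all 5 alternatives run, from 0.11 per all reads to 0.31 without the Mir16 copies. None of these left out Mir195a, which had 4865 reads in library 1 and 3296 in library 2. Mir195a made up 1271 of the family's 3291 CPM in library 1 and 724 of 2919 CPM in library 2. The remaining members together were thus lower in library 1, so by library totals the sign of the sum rests on Mir195a. No interval was computed without it. The number of members called by the exact binomial test was 4 of 6 under other scalings and count minimums and 3 of 5 in the column that ignores strand. Over all genes tested, it called 250 of 508 with TMM factors and 246 of 508 with DESeq2 size factors. It called 251 of 758 genes with 1 or more reads in total and 232 of 360 with 50 or more. In the column that ignores strand it called 222 of 481 genes. edgeR's exact test called 0 members in all 5 settings run, with unadjusted p of at least 0.161, and it called 3 or 4 of all genes tested in each setting. Pairs up to 10000 bases apart, an alternative added after the data were seen, gave 79 of 114 called, 3 of them the family's. Leaving out either library returns the values of the other, given in the results above, and is no check of stability. No paired analysis was possible because there was 1 group. Depth limits Mir497b, whose absence cannot be told from a level below the limit of a count of 0.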
